A study of Danio rerio with 4 samples.

Results

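The transcripts described here were abundant in zebrafish germ cells that received a control morpholino and were much lower in germ cells that received a morpholino against dead end. They are the rows of the authors' deposited gene table with at least 50 FPKM in the control group and a fall of at least 3-fold in the dead end group. FPKM scales fragments to transcript length and to library depth, so levels of different genes can be set side by side. Because of the scaling to depth, a fold between the groups also depends on the other transcripts of each library. All genes of the table summed to 117114 FPKM in the control group and 236837 FPKM in the dead end group. How far this entered the falls was not tested. Solute carrier and egg coat genes (symbols starting with slc or zp) were left out, as were nanos3, ddx4, tdrd7a, ca15b, gra, gdf3, wee2, otud4, acadm, ppt1 and cxcr4b. The selection holds 34 of the 2477 genes in the table and 34 of its 868 lower genes. A further 9 genes met both limits and were left out by name. Of the 34, 26 carry a gene symbol and 8 a clone or locus name only.

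The cells were primordial germ cells of AB strain embryos at 13 hours post fertilization, injected with control MO or with dead end MO and sorted by flow cytometry on a germline-specific EGFP signal. There were 2 libraries for each agent, and the labels do not say whether they came from separate clutches or whether the morpholino blocks translation or splicing. The table gives 1 FPKM value per group, so no spread between libraries can be computed, no depth is known, and every fold below is the ratio of 2 group values. Every gene in the table has an authors' q under 0.05, and genes outside the table, dnd1 among them, were not analysed here.

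Primordial germ cells inherit their RNA in large part from the egg, where germ plasm gathers transcripts that are then kept in the germline and cleared from the soma. RNA-binding proteins carry much of this control, by protecting, silencing or translating the stored transcripts. Dead end is such a protein, known in zebrafish for shielding germ cell transcripts from microRNAs and for germ cell migration and survival. The question behind the comparison, from the title of the series, is how Dead end keeps germ cells from differentiating as somatic cells.

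The 34 transcripts stood between 50.7 and 204.5 FPKM in the control group, with a median of 66.6 FPKM. In the dead end group they stood between 2.35 and 48.0 FPKM, with a median of 16.4 FPKM, and none was listed at 0. The ranges of the groups did not overlap, which the limits of the selection nearly fix. The fall was between 3.02-fold and 33.7-fold (median 4.06-fold), and the level left was between 2.96% and 33.1% of the control level. These values chose the genes, so they are a description and were not tested. In bulk RNA, fewer germ cells in a sort and less of a transcript per cell cannot be told apart. In the whole table, 35.0% of genes were lower in the dead end group, and among the 441 with a control level of 50 FPKM or more 38.5% were lower. The authors' deposited table gave 20 of the 34 (58.8%) the smallest q, 0.00107, against 17.3% of all lower genes. It gave 29 of the 34 (85.3%) a q under 0.01, against 51.7% of all lower genes and 55.3% of lower genes with a control level of 50 FPKM or more, and 18.1% of all genes in the table were lower at that limit. The selection used the same contrast, so nothing is read from these shares.

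**Figure D1:**
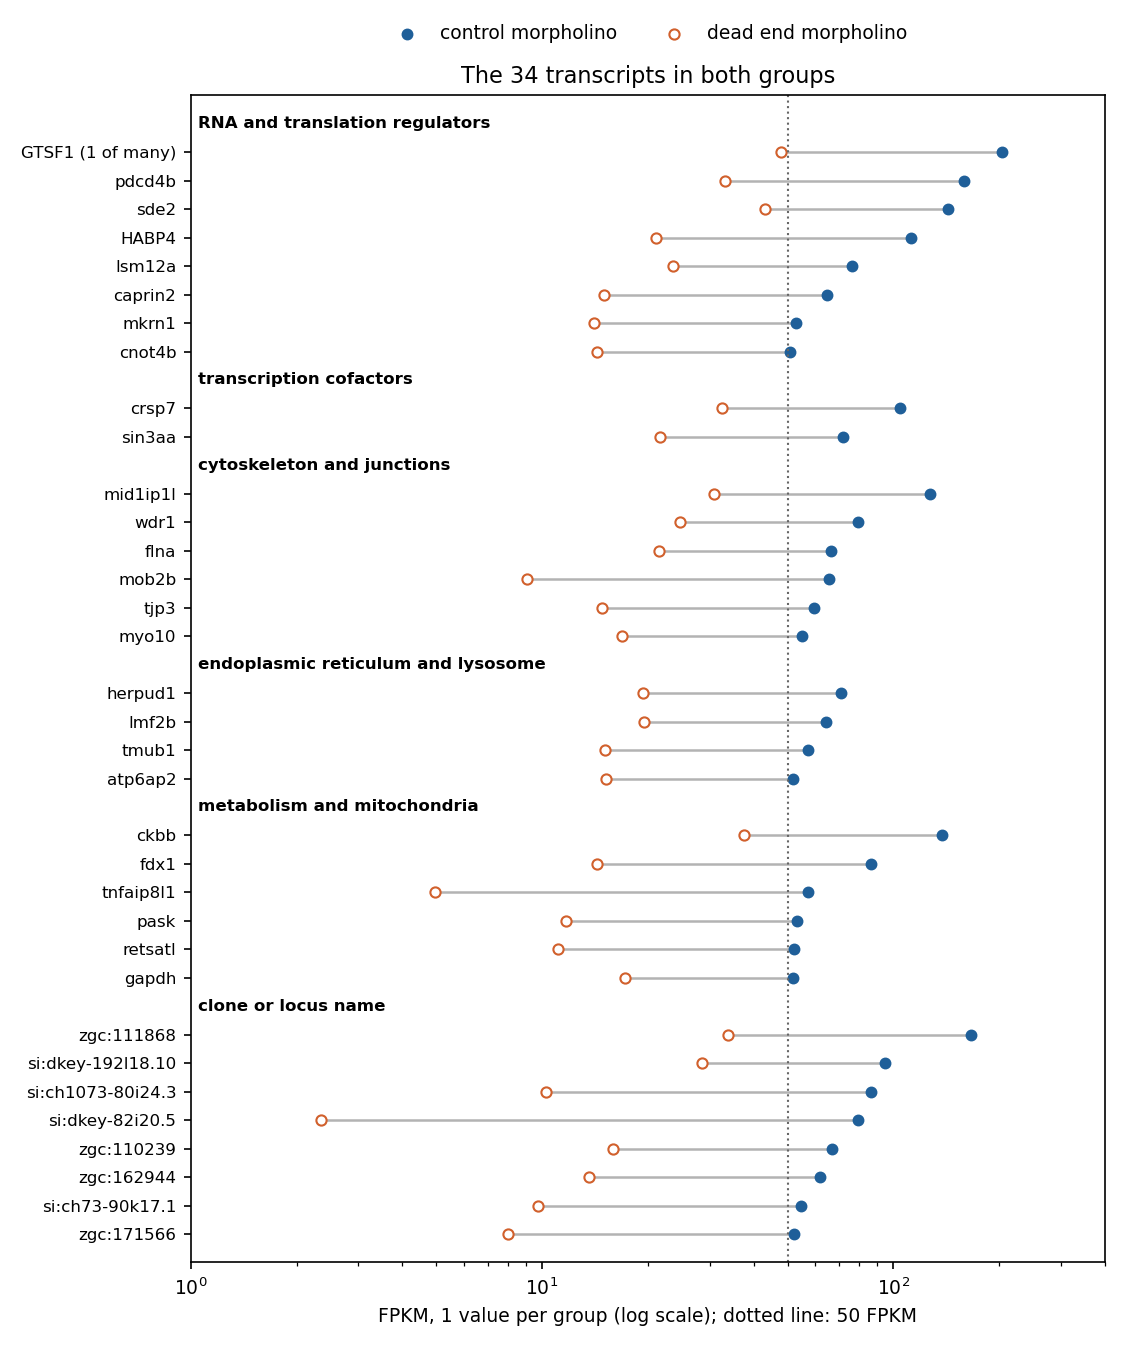
FPKM of each of the 34 transcripts in the control group (filled) and in the dead end group (open), 1 value per group on a log scale, ordered by role and by control level. All filled points lie at or right of 50.7 FPKM, and si:dkey-82i20.5 and tnfaip8l1 have the lowest open points, at 2.35 and 4.95 FPKM.

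The largest group by function was that of RNA and translation regulators, with 8 genes and a median fall of 4.0-fold (3.23-fold to 5.32-fold). Roles were assigned after the values were seen, and their shares among all genes of the table were not computed. The size of a group is therefore only a description. The gene listed as GTSF1 (1 of many) (ENSDARG00000000887, chromosome 23, 32139636 to 32203083, positions taken as GRCz10) had the highest control level of the 34, at 204.5 FPKM. Its mouse and fly counterparts act in the piRNA pathway, the small RNA defence of the germline against transposons. It stood at 48.0 FPKM in the dead end group, a fall of 4.26-fold (authors' deposited table q = 0.00259). For pdcd4b (ENSDARG00000041022, chromosome 22, 29709787 to 29740786), whose mammalian counterpart inhibits translation by binding the helicase eIF4A, the levels were 158 and 33.1 FPKM, a fall of 4.79-fold. The authors' deposited table gave it the most negative test statistic of the 34, -4.95, with q = 0.00107.

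HABP4, which encodes an RNA-binding protein of the family of SERBP1, had the largest fall of these 8, from 112 to 21.1 FPKM (5.32-fold). The gene caprin2, whose protein relatives sit in RNA granules, fell from 64.8 to 15.0 FPKM (4.33-fold). For sde2, which in human cells acts in splicing and genome maintenance, the values were 144 and 43.1 FPKM, a fall of 3.33-fold. All 3 had the smallest q of the authors' deposited table.

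The remaining 3 genes of this group fell by less than 4-fold. The RNA-binding LSM domain gene lsm12a fell 3.23-fold, from 76.2 to 23.6 FPKM. The makorin gene mkrn1, an RNA-binding ubiquitin ligase, fell 3.75-fold (from 52.8 to 14.1 FPKM), and cnot4b, the ubiquitin ligase linked to the CCR4-NOT deadenylase, fell 3.55-fold (from 50.7 to 14.3 FPKM). These last genes are neighbours: cnot4b (chromosome 4, 12244848 to 12287218) ends 6.21 kb before mkrn1 (chromosome 4, 12293424 to 12308985), and their levels were alike in both groups. They were the one pair among the 34 found within 20 kb of each other.

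The pair of transcription cofactors fell to a similar extent. The Mediator subunit gene crsp7 stood at 105 FPKM in the control group and at 32.6 FPKM in the dead end group, a fall of 3.21-fold. The corepressor scaffold gene sin3aa stood at 71.8 and 21.6 FPKM, a fall of 3.32-fold. Both had q = 0.00107 in the authors' deposited table.

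Genes of the cytoskeleton and of cell junctions, 6 in all, fell by a median of 3.63-fold. The highest of them, mid1ip1l (ENSDARG00000018145, chromosome 14, 41099113 to 41101782), is a maternal-effect gene of zebrafish needed for the cortical cytoskeleton of the egg and for the gathering of germ plasm. It fell from 127 to 30.9 FPKM (4.11-fold, authors' deposited table q = 0.00107). The gene mob2b, whose protein family regulates NDR kinases, fell most in this group, from 65.6 to 9.08 FPKM (7.22-fold, authors' deposited table q = 0.0158). For tjp3, which encodes a tight junction scaffold, the values were 59.5 and 14.8 FPKM, a fall of 4.01-fold.

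The genes flna, wdr1 and myo10 lay close to the limit of the selection. So did genes of other roles, such as gapdh (3.02-fold), crsp7 (3.21-fold) and lsm12a (3.23-fold). The actin crosslinker gene flna fell from 66.3 to 21.6 FPKM (3.07-fold), and wdr1, a cofactor of cofilin in actin disassembly, fell from 79.1 to 24.7 FPKM (3.20-fold). The gene of the filopodial motor myosin X, myo10, fell from 54.8 to 16.9 FPKM (3.24-fold). It had the largest q of the 34 in the authors' deposited table, 0.0432. The 3 test statistics closest to 0 in the authors' deposited table were those of myo10 (-1.77), flna (-1.80) and mob2b (-1.88), against -4.95 for pdcd4b. Their loci span 99.7, 55.1 and 68.7 kb, which places them among the 6 longest of the 34. The rest of these 6, si:dkey-82i20.5, si:dkey-192l18.10 and GTSF1 (1 of many), had statistics of -2.72, -3.22 and -3.24.

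The endoplasmic reticulum and lysosome group held 4 genes with a narrow range of falls, 3.30-fold to 3.79-fold. Both herpud1 (from 70.8 to 19.4 FPKM, 3.64-fold) and tmub1 (from 57.2 to 15.1 FPKM, 3.79-fold) encode ubiquitin-like domain proteins that act in degradation of proteins from the endoplasmic reticulum. The lipase maturation factor gene lmf2b fell from 64.4 to 19.5 FPKM (3.30-fold). The gene atp6ap2, an accessory subunit of the proton pump of lysosomes, fell from 51.8 to 15.2 FPKM (3.40-fold).

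Metabolic and mitochondrial genes, 6 in all, had a median fall of 4.62-fold and the widest range of the groups with gene symbols, 3.02-fold to 11.6-fold. The upper end rests on tnfaip8l1 alone, a loose fit to this group, and the next largest fall was 6.02-fold. At the top was tnfaip8l1 (ENSDARG00000086457, chromosome 22, 4769085 to 4787454), of a family of lipid-binding proteins, at 57.3 FPKM in the control group and 4.95 FPKM in the dead end group (11.6-fold, authors' deposited table q = 0.00107). The mitochondrial ferredoxin gene fdx1, an electron donor for steroid synthesis in mammals, fell from 86.4 to 14.3 FPKM (6.02-fold). The retinol saturase-like gene retsatl fell 4.70-fold (from 52.0 to 11.1 FPKM), and pask, a kinase gene of nutrient sensing, fell 4.54-fold (from 53.2 to 11.7 FPKM). The creatine kinase gene ckbb, which buffers cellular ATP, was the most abundant of the group, at 138 FPKM in the control group and 37.7 FPKM in the dead end group (3.65-fold).

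The glycolytic enzyme gene gapdh (ENSDARG00000043457, chromosome 16, 17284686 to 17292143), often taken as a constant reference in expression work, was among the 34. It stood at 51.9 FPKM in the control group and at 17.2 FPKM in the dead end group, the smallest fall of the selection (3.02-fold, authors' deposited table q = 0.00381). It was also the third lowest in control level, after cnot4b and atp6ap2.

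The 8 genes with clone or locus names fell by a median of 5.27-fold, and no role is given for them here. The largest fall of all 34 was that of si:dkey-82i20.5 (ENSDARG00000101729, chromosome 4, 49429386 to 49608084), from 79.4 to 2.35 FPKM (33.7-fold, authors' deposited table q = 0.0248). Its locus, 179 kb, was also the longest. The shortest locus, 1.26 kb, belonged to si:ch1073-80i24.3, which fell 8.39-fold (from 86.3 to 10.3 FPKM, authors' deposited table q = 0.0218). The most abundant was zgc:111868 (ENSDARG00000099060, chromosome 12, 42208867 to 42213007), at 167 FPKM in the control group and 33.8 FPKM in the dead end group (4.94-fold).

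The other 5 clone-named genes showed falls on both sides of the median. The values of zgc:171566 were 52.1 and 7.98 FPKM (6.53-fold), and those of si:ch73-90k17.1 were 54.6 and 9.75 FPKM (5.60-fold). For zgc:162944 the fall was 4.56-fold (from 61.8 to 13.6 FPKM) and for zgc:110239 it was 4.20-fold (from 67.0 to 15.9 FPKM). The gene si:dkey-192l18.10 fell least of the 8, from 95.0 to 28.5 FPKM (3.34-fold).

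Among all lower genes with values above 0 in both groups, 712 in number, the median fall was 3.08-fold. Among those with a control level under 50 FPKM it was 3.47-fold. These medians leave out 156 lower genes listed at 0 in the dead end group, 155 of them under 50 FPKM in the control group. With these genes counted, the median level left was 27.44% of the control level for all lower genes. It was 24.01% for lower genes under 50 FPKM, close to the 24.61% of the 34. The other 135 lower genes with a control level of 50 FPKM or more and a value above 0 in the dead end group had a median fall of 2.2-fold. Apart from genes left out by name, such as nanos3 and ca15b, all of these fell by less than 3-fold. The gap to the 34 is therefore set by the selection. Of the 34, 8 (23.5%) fell more than 5-fold and 2 more than 10-fold. Falls of more than 5-fold made up 20.1% of the 712 lower genes, and 23.9% of those under 50 FPKM in the control group. Of the 712, 28 fell more than 10-fold. Genes listed at 0 have no fold and are not in these counts. Just inside the limit of 3-fold lay gapdh, flna and wdr1, at 3.02-fold to 3.20-fold. Just outside it lay the chaperone gene hsp90b1 (2.97-fold), the nucleotide hydrolase gene dctpp1 (2.94-fold) and the deubiquitinase gene usp19 (2.92-fold). At the limit of 50 FPKM, cnot4b, atp6ap2 and gapdh lay just inside. Just outside were larp6 (49.3 FPKM), zgc:77118 (47.9 FPKM) and zgc:92818 (47.2 FPKM), which fell 4.25-fold, 8.14-fold and 3.35-fold.

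**Figure D2:**
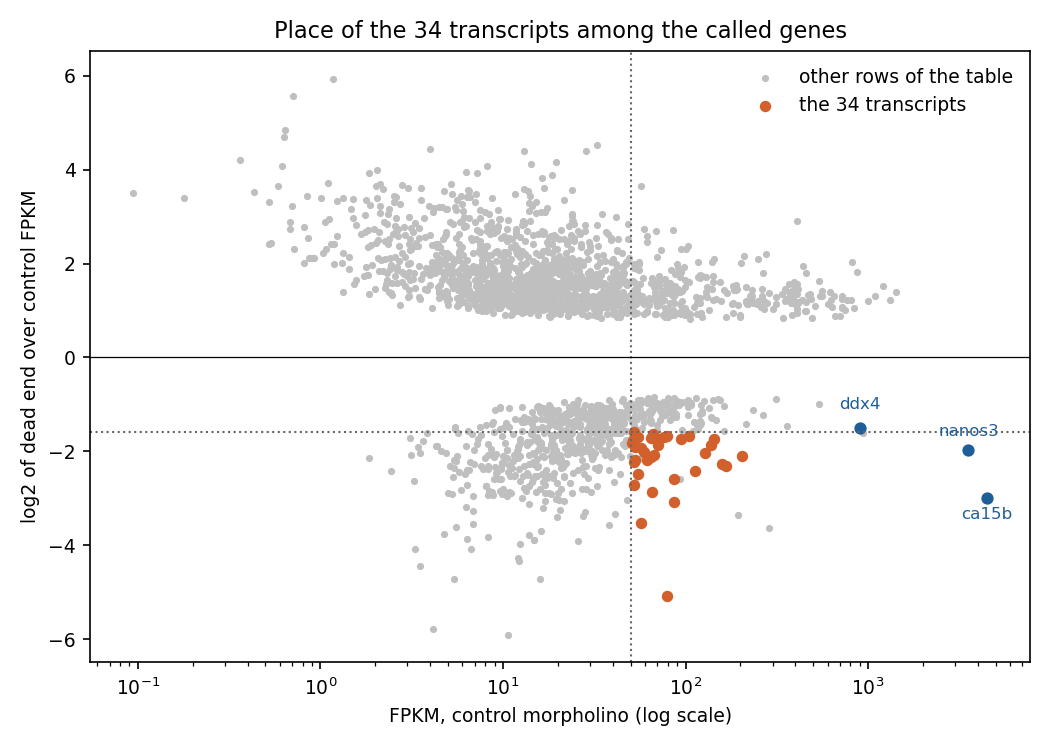
Control FPKM (log scale) against log2 of the dead end over control FPKM for every gene of the table with values above 0 in both groups. Dotted lines mark 50 FPKM and a 3-fold fall. The 34 transcripts (orange) lie in the corner beyond both lines at 50.7 to 204.5 FPKM, left of nanos3 and ca15b. Other genes left out by name lie in the same corner in grey, such as gdf3 (194.7 FPKM, 10.2-fold) and acadm (93.1 FPKM, 6.03-fold).

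The levels of the 34 lay below those of ca15b, nanos3, tdrd7a and ddx4 and above those of piwil2 (38.3 FPKM) and tdrd6 (17.0 FPKM) in the control group. The germ cell gene dazl, at 148 FPKM, lay within their range. The survival regulator nanos3 alone stood at 3543 FPKM in the control group, which is 1.25 times the 2838 FPKM that the 34 summed to. In the dead end group the 34 summed to 673 FPKM. The helicase gene ddx4 fell 2.84-fold, which is less than the selection admits. Of the 34, 18 fell by more than nanos3 (3.91-fold) and 16 by less. The selection admits only falls of at least 3-fold, so nothing is read from this split. The 7 germ cell markers (nanos3, ddx4, tdrd7a, dazl, piwil2, tdrd6 and ca15b) were all in the table and all lower, where 35.0% of all its genes were lower. They summed to 10074 FPKM in the control group and 2167 FPKM in the dead end group. All 7 belong to a longer germ cell list, given below, in which 6 of the 20 genes found were higher. Several are named in the selection rule, so the count is no check of the label. The falls of the 7 markers, 2.51-fold to 11.8-fold (median 3.91-fold), spanned the falls of all of the 34 but si:dkey-82i20.5. The lower end of the 34 is set by the selection, so this overlap is only a description.

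Neither list of germline genes held any of the 34, which follows from the selection and from the make-up of the lists together. The lists held neither GTSF1 nor mid1ip1l, both among the 34 and described above with germline roles. The listed genes that met both limits (nanos3, tdrd7a, ca15b, gdf3, wee2 and otud4) were all left out by name. Of 40 listed germ cell genes, 20 were in the table, and 14 of these were lower and 6 higher, where 35.0% of all genes in the table were lower. The lower ones fell by 2.17-fold to 11.8-fold (median 4.40-fold), with examples in the piRNA pathway such as asz1 (from 17.0 to 2.82 FPKM) and tdrd1 (from 19.1 to 3.48 FPKM). The 6 higher ones rose by 2.96-fold to 17.3-fold (median 5.22-fold), all at q under 0.01 in the authors' deposited table. They were the pluripotency factor gene pou5f3 (from 14.3 to 247 FPKM), hook2, prdm1a, igf2bp3, ybx1 and rbm47. Of 43 listed genes of oocytes and maternal RNA, 6 were in the table and all 6 were lower. They included cpeb1b, a regulator of stored mRNA (from 20.8 to 4.08 FPKM), and eif4enif1, a translational repressor gene (from 82.6 to 32.8 FPKM). The lists were chosen with earlier results of these data known, so their direction is not independent evidence.

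Markers of somatic tissues were higher in the dead end group, while the 34 were lower because the selection requires it. Of 8 listed genes of muscle and paraxial mesoderm, 7 were in the table, and they summed to 112 FPKM in the control group and 2143 FPKM in the dead end group. Of 7 neural markers, 6 were in the table, summing to 116 and 763 FPKM. The 5 of 8 epidermal and enveloping layer markers in the table summed to 244 and 546 FPKM, and the 2 of 5 for the yolk syncytial layer to 491 and 1274 FPKM. For endoderm (3 of 4) the sums were 18.3 and 116 FPKM, for notochord (3 of 4) 35.6 and 280 FPKM, and for blood and endothelium (3 of 5) 6.71 and 52.2 FPKM. Every one of these 29 somatic markers was higher, where 65.0% of all genes in the table were higher, and sox32 was listed at 0 in the control group. Only genes with an authors' q under 0.05 could appear. These lists too were chosen with earlier results of these data known, so the direction is not independent evidence. The part of the sorted cell mix in the falls of the 34 was not tested.

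**Figure D3:**
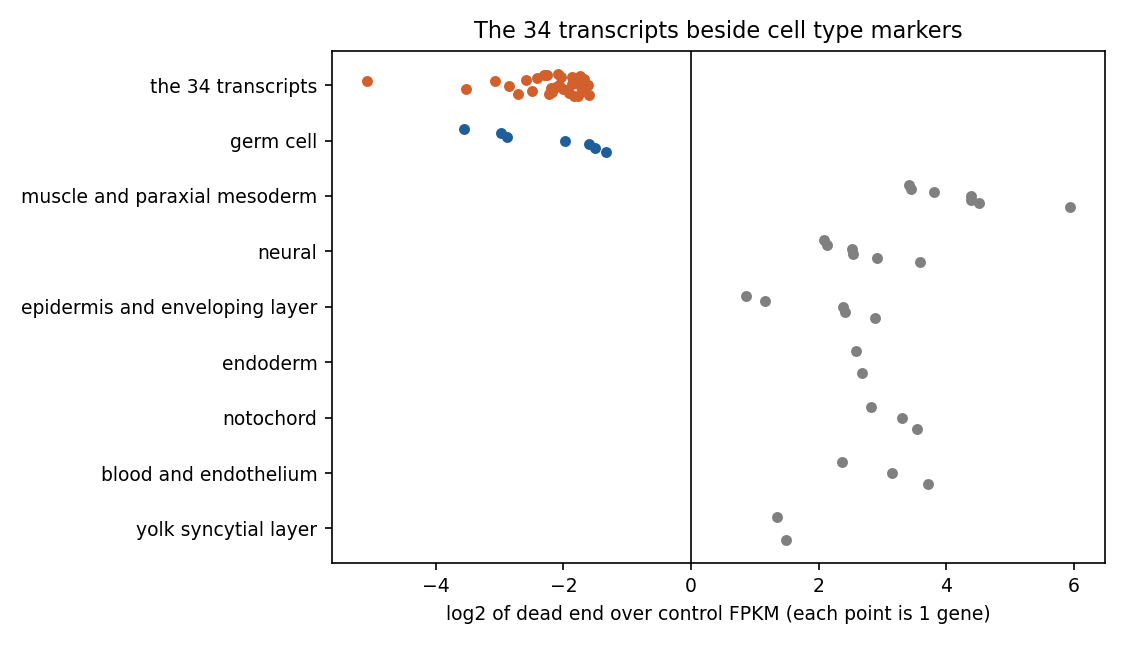
Log2 of dead end over control FPKM for the 34 transcripts and for the cell type markers found in the table with values above 0 in both groups, 1 point per gene. The 34 lie left of 0 by the selection. The 7 germ cell markers also lie left of 0, and the somatic markers lie right of 0. The genes of the longer germ cell list that were higher are not shown.

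Relatives of the 34 in the same table mostly moved the other way. A search by symbol over 24 gene families found relatives for 9 of them, 11 genes in all, of which 10 were higher and 1 was lower in the dead end group. Of all genes tabulated, 65.0% were higher. The families were chosen after the values were seen, and only genes with an authors' q under 0.05 could appear, so these are counts without a test. The exception was mid1ip1b, the relative of mid1ip1l, which fell from 19.2 to 4.21 FPKM (4.56-fold, authors' deposited table q = 0.0169).

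Opposite pairs were found in each role with a relative in the table. While mob2b fell, its paralog mob2a rose from 15.0 to 39.4 FPKM (2.63-fold) and the kinase regulator gene mob1ba rose from 18.6 to 49.3 FPKM (2.66-fold). While HABP4 fell, serbp1a, of the same RNA-binding family, rose from 387 to 987 FPKM (2.55-fold). The gene caprin1b rose 1.86-fold (from 83.8 to 156 FPKM), and the corepressor gene sin3b rose 2.60-fold (from 17.3 to 44.9 FPKM).

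Among cytoskeletal and junction genes, the tight junction scaffold genes tjp1a and tjp1b rose 1.87-fold and 2.21-fold while tjp3 fell. The filamin gene flncb, whose mammalian counterpart is a muscle filamin, rose from 4.58 to 19.1 FPKM (4.17-fold), and myo10l3 rose from 2.47 to 7.38 FPKM (2.99-fold). In the lipid-binding family, tnfaip8l3 was listed at 0 in the control group and stood at 1.07 FPKM in the dead end group. In the HABP4 and SERBP1 family, serbp1a stood above HABP4 in the control group as well, at 387 against 112 FPKM. In the caprin family, caprin1b stood at 83.8 FPKM in the control group against 64.8 FPKM for caprin2. In the other families with an opposite pair, the falling gene was the more abundant in the control group, which the limit of 50 FPKM favours.

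Complex partners found by symbol were mostly higher, 3 of 3 for CCR4-NOT and 4 of 5 for Mediator, where 65.0% of all genes tabulated were higher. These counts were not tested, and a search by symbol can miss partners. Of the CCR4-NOT complex, which shortens the poly(A) tails of mRNA, cnot6a (from 53.0 to 160 FPKM), cnot8 (from 18.8 to 44.1 FPKM) and rqcd1 (from 32.3 to 63.6 FPKM) rose while cnot4b fell. Of the Mediator complex, which links transcription factors to RNA polymerase, med1, med13a, med13b and med14 rose by 1.93-fold to 3.97-fold. The Mediator gene med4 fell with crsp7, from 41.1 to 16.9 FPKM (2.43-fold, authors' deposited table q = 0.0323). Near-identical paralogs can share reads in such a quantification, and no source used here says how the authors treated them.

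**Figure D4:**
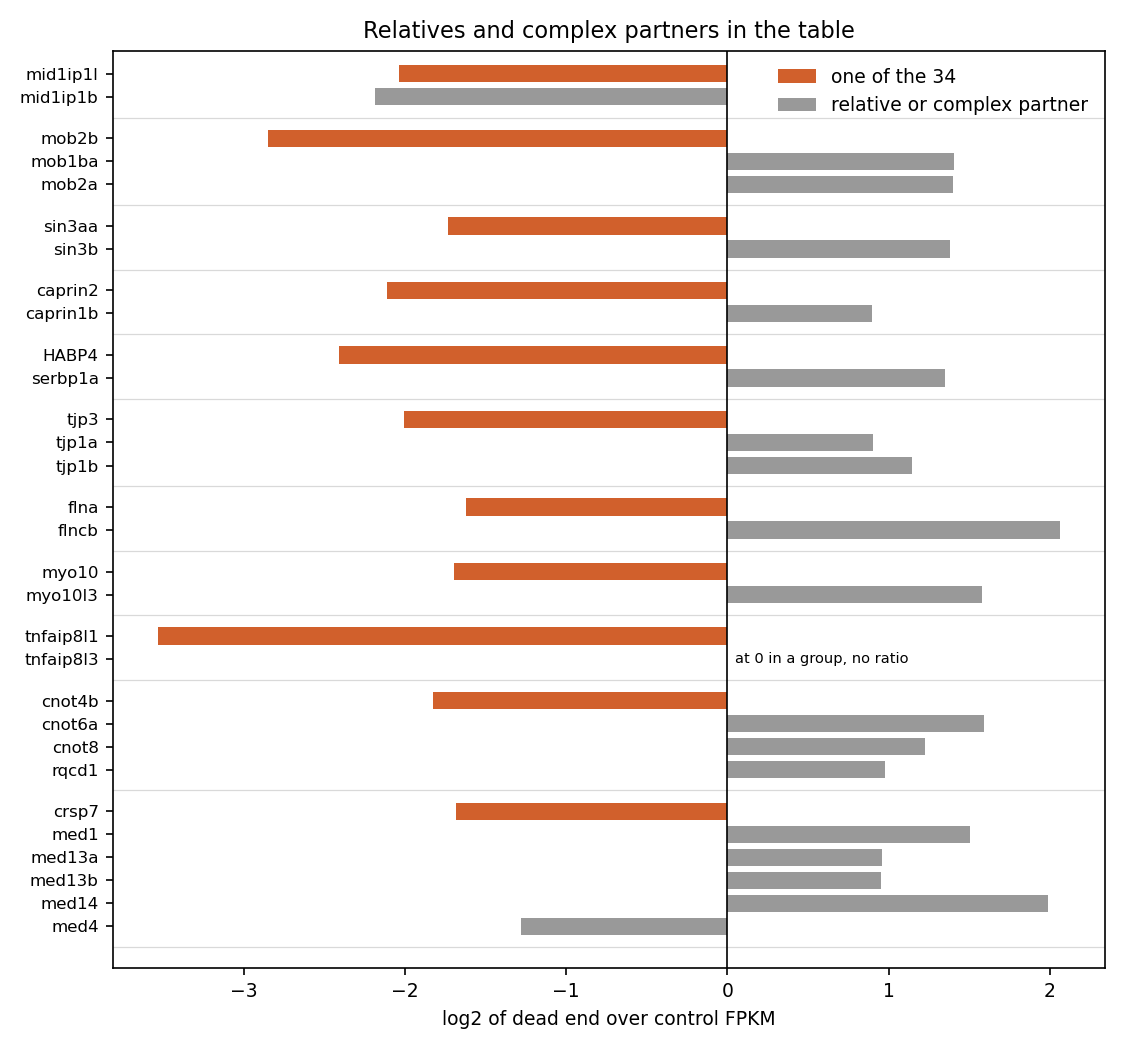
Log2 of dead end over control FPKM for members of the 34 (orange) and for their relatives or complex partners in the table (grey), grouped by family or complex. Grey bars point right of 0 except for mid1ip1b and med4, and tnfaip8l3 has no ratio because it is listed at 0 in the control group.

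The loci of the 34 spanned 1.26 to 179 kb, counted from the start to the end given in the table, with a median of 13.5 kb and an interquartile range of 7.20 to 33.0 kb. After si:dkey-82i20.5 the longest were those of myo10 (99.7 kb) and si:dkey-192l18.10 (85.0 kb). After si:ch1073-80i24.3 the shortest were those of mid1ip1l (2.67 kb) and si:ch73-90k17.1 (4.07 kb). All lower genes had a median of 19.7 kb, and the other 136 lower genes with a control level of 50 FPKM or more had a median of 16.7 kb. The 271 higher genes with a control level of 50 FPKM or more had a median of 8.17 kb, and all higher genes 20.4 kb. Under 10 kb lay 32.4% of the 34, 27.2% of the other 136 abundant lower genes and 23.4% of all lower genes. The share was 57.2% for the abundant higher genes and 27.7% for all genes of the table. Over 100 kb lay 1 of the 34, 2 of the other 136 abundant lower genes and 43 of the 868 lower genes. Genes are not replicates, so these spans are a description, and overlapping gene models can be merged into 1 Cufflinks locus.

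**Figure D5:**
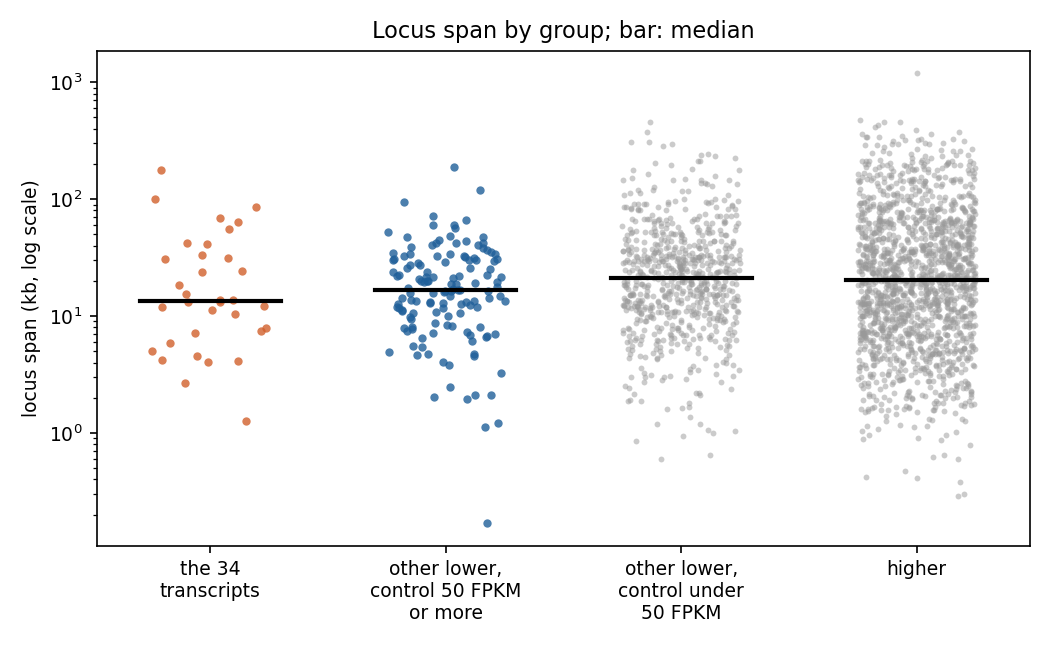
Locus span in kb (log scale) of the 34 transcripts, of the other lower genes with a control level of at least 50 FPKM or under 50 FPKM, and of the higher genes, 1 point per gene with the median as a bar. The median of the 34 is 13.5 kb and the points of all groups overlap widely.

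Locus span and the test statistic were also set side by side across genes. Spearman's rho between locus span and the size of the statistic in the authors' deposited table was -0.28 over the 34 genes and -0.10 over the 712 lower genes with values above 0 in both groups. Both are correlations across genes of the same 4 libraries. The statistic comes from the contrast that chose the genes, which limits its range, so nothing is read from either value.

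The 34 lay on 17 chromosomes. Chromosome 22 held 6 of them (pdcd4b, sde2, tjp3, tnfaip8l1, zgc:171566 and atp6ap2), which is 17.6% of the 34, against 3.46% of all lower genes. Chromosome 4 held 5 (si:dkey-82i20.5, caprin2, lmf2b, mkrn1 and cnot4b), or 14.7% against 3.57% of all lower genes. These chromosomes were singled out after their counts were seen and were not tested.

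No locus of the 34 overlapped another gene of the table, and 10 of the 34 had another gene of the table within 20 kb. The same share was not computed for the other genes of the table, so nothing is read from this count. Beside the pair of mkrn1 and cnot4b there were 8 such neighbours, of which 3 were lower and 5 higher, near the 35.0% of lower genes in the whole table. Next to fdx1, at 3.91 kb, lay rnf17, a Tudor domain gene of the germline, which fell from 12.3 to 2.38 FPKM (5.15-fold, authors' deposited table q = 0.00534). Next to zgc:171566, at 0.429 kb, lay PODXL2, which fell from 30.3 to 4.19 FPKM (7.24-fold). Next to mid1ip1l, at 0.44 kb, lay the tetraspanin gene tspan7, which rose from 64.6 to 193 FPKM (2.99-fold). The third lower neighbour was rev1, beside zgc:162944, which fell 2.27-fold. The other higher neighbours were si:ch211-223c9.2 beside pdcd4b (5.21-fold), cnn2 beside crsp7 (2.75-fold), bcor beside atp6ap2 (2.30-fold) and ppp1r13bb beside ckbb (2.08-fold). Whether adjoining genes share reads was not tested.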

How the data were processed

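RNA of sorted germ cells was sequenced in 4 libraries, 2 per agent, from directional kits, per the labels' protocols. The authors' tools included Cuffdiff, Cufflinks 2.2.1, STAR 2.5.2b and cutadapt 1.10, per the submitters' processing notes, which also name 2 builds, GRCz10 and Zv9, without saying what each was used for. Positions were taken as GRCz10 because chromosome 4 reaches position 74754136 in the table and is shorter in Zv9. No source used here gives the strand setting of the quantification. The authors deposited FPKM values, 1 per group, with a log2 ratio (dead end over control), a test statistic (a score), a p-value and a q-value per gene, per the file headers. The log2 values matched the FPKM values of the 34 genes within 8.14e-06. As no library has its own value, no test was run here, and the authors' q under 0.05 was the call. The deposited enrichment tables give terms without their genes and were not used.

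Folds, medians, locus spans (end minus start plus 1), families by symbol and neighbours within 20 kb were computed here. The tools were Python 3.11.15, pandas 2.3.3 and scipy 1.17.1. The selection was run on simulated data in which all genes not planted missed both limits, which checks the code only. Reference names covered 32 of the 34 identifiers. All 34 genes are named, which takes in the rule for named genes: the 20 highest control levels, the 10 largest falls, the 3 nearest to each limit and the 3 longest and shortest loci. The members and lists were chosen with earlier results of these data known, and roles, families and neighbours after the values were seen. Alternatives changed the limits, the q and an added constant.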

Additional observations from a re-analysis of the deposited data

How the results depend on the processing

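No paired analysis was possible because the table has 1 value per group and no column per library, and for the same reason no library could be left out. With a control minimum of 25 FPKM the selection held 113 genes (median fall 3.92-fold, median locus span 15.6 kb), and with 100 FPKM it held 8 (4.19-fold, 6.47 kb). With a fall of at least 2-fold it held 117 genes (2.51-fold, 15.7 kb), and with at least 4-fold 18 genes (4.87-fold, 13.0 kb). At an authors' q under 0.01 it held 29 genes (4.01-fold, 13.3 kb). With 1 FPKM added to both values it held 32 genes (4.02-fold, 13.5 kb), and with 5 FPKM added 23 genes (3.68-fold, 13.3 kb). Without the locus over 100 kb the median span was 13.3 kb. Because the limits choose the genes, these medians move with them by construction. The count of lower genes was 449 at q under 0.01, against 868, and 832 or 702 with at least 1 or 5 FPKM in the higher group. Of the lower germ cell genes 11 of 14 had q under 0.01, and of the lower oocyte genes 6 of 6. With 2 libraries per group merged into 1 value, the error of each fold is unknown.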
